A study of Mus musculus with 6 samples.

Results

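The expression of 8 genes that write, read or erase DNA methylation and the linked histone mark H3K27me3 was examined in JNK-deficient mouse breast tumor cells. The genes are Dnmt1, Dnmt3a, Dnmt3b, Uhrf1, Tet1, Tet2, Tet3 and Ezh2. They were taken by symbol from a table of 37753 genes with expression values, and each of the 8 was found on 1 entry. The study asked which genes differ between primary mammary epithelial cells and tumor cells that lack JNK. Expression is given as FPKM, sequenced fragments scaled to transcript length and to the size of the library, so levels of different genes can be set side by side per length.

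DNA methylation is the addition of a methyl group to cytosine, mostly where a guanine follows. DNMT3A and DNMT3B set new marks, and DNMT1, guided by UHRF1, copies the pattern onto the new strand after each round of DNA replication, so that cells that do not maintain it lose the mark as they divide. The TET enzymes oxidise methylcytosine, which starts its removal, and EZH2, the catalytic subunit of Polycomb repressive complex 2 (PRC2), methylates lysine 27 of histone H3, a mark that keeps genes silent and is often found where DNA methylation is low.

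The 3 control libraries were made from cultured mammary epithelium (MEC) and the other 3 from tumor cell lines (MEKO), all of strain C57/Bl6J, with 1 library each. Each MEC preparation pooled cells of 3 to 5 virgin females aged 10 to 12 weeks whose label gives the genotype WAPCre+ with intact Mapk8 and Mapk9, the genes that encode JNK1 and JNK2. The MEKO cells carry the same Wap-Cre transgene and are deleted for Mapk8 and Mapk9. Wap-Cre places Cre recombinase under a milk protein promoter that is switched on in luminal cells by lactation, so the tumors arose in mice that had nursed. The age of the tumor-bearing mice at collection is not used here. The paper states that females were bred at 10 to 12 weeks, before tumor monitoring, so these mice were older than the MEC donors. Each MEKO library stands for 1 cell line, passed 2 times on collagen I and then grown on standard dishes, and MEC were collected from their first culture on collagen I. Genotype, tumor origin, parity, age and time in culture therefore change together and cannot be told apart. The lines are called 199, 233 and 336 after their labels. Paired by these numbers with the histology of the mice, line 199 came from an adenosquamous carcinoma, line 336 from an adenocarcinoma, and line 233 from a mouse with both classes. The pairing was not checked further.

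The deleted genes followed the labels. Mapk8 was at 19.2 to 25.1 FPKM in MEC and at 1.37 to 5.93 FPKM in the MEKO lines, and Mapk9 at 21.5 to 24.4 against 3.07 to 7.62 FPKM. Line 199 kept the most RNA of both. The paper's immunoblot of MEKO tumor cells found no JNK protein. Mapk8 was at 26.4%, 13.9% and 6.09% of the MEC mean in lines 199, 233 and 336, and Mapk9 at 33.6%, 13.9% and 13.5%. The summed FPKM of 8 epithelial markers was 6640 to 10900 in MEC and 1770 to 3020 in MEKO, with Epcam, Cdh1, Krt8 and Krt19 called lower. The sum of 8 fibroblast markers was 118 to 207 in MEC, 1110 in line 199 and 2.43 and 4.23 in lines 233 and 336. In line 199 the collagens Col1a1 (600 FPKM), Col1a2 (408 FPKM) and Col3a1 (71.5 FPKM) made up most of the sum. Pdgfra (1.31 FPKM) and Pdgfrb (19.0 FPKM) were also above every MEC library in that line. Dcn, Lum and Thy1 were below every MEC library in all lines. Thy1 was still at 11.1 FPKM in line 199, against 0.0287 and 0.0133 FPKM in lines 233 and 336. Line 199 also kept Krt5 at 608 FPKM, against 1.33 and 15.3 FPKM in the other lines. The sum of 5 endothelial markers was 16.9, 19.7 and 2.13 FPKM in MEC 1, 2 and 3 and 0.164 to 2.01 FPKM in MEKO, that of 8 leukocyte markers was 8.12 to 17.4 and 0.946 to 24.9 FPKM, and that of 4 adipocyte markers did not pass 0.226 FPKM in any library. The highest leukocyte sum was that of line 336, where Cd68 alone was at 23.5 FPKM, and 5 of the 8 leukocyte markers (Ptprc, Csf1r, Itgam, Cd52 and Laptm5) were lower in every line than in every MEC library, with Laptm5 called lower. Fewer cells of a type and less RNA per cell cannot be told apart in such bulk samples. The part of other cell types in the values that follow was not tested.

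Dnmt1, Uhrf1 and Ezh2 were the most expressed of the 8 genes, and the promoter sequences of these 3 held a motif of E2F, the factor family that switches on replication genes. The sequences are printed because Dnmt1 and Uhrf1 are set beside replication genes further on, with Ezh2 for comparison. The search used the letters TTTCCCGC, TTTGGCGC, TTTCGCGC and TTTGCCGC on both strands of RefSeq windows (GRCm38.p6) that run from 250 bases before to 50 bases after each annotated start. The capitals mark the match, which in Dnmt1 lies on the opposite strand.
Uhrf1, chr17:56304063-56304312, plus strand: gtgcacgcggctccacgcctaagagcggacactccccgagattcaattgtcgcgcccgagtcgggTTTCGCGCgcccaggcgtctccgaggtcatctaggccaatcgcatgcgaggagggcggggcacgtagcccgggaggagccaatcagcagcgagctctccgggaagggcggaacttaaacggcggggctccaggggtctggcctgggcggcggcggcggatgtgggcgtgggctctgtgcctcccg
Ezh2, chr6:47595009-47595038, minus strand: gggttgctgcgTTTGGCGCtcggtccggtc
Dnmt1, chr9:20952824-20952853, minus strand: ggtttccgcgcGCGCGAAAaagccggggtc

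The Uhrf1 stretch is the 250 bases before one of its annotated starts and holds no exon of the gene. That start lies 35 bases from the start of a principal transcript. The other Uhrf1 window, whose start lies 16 bases from that of a principal transcript, held no match. The Ezh2 match begins 3 bases after the start of the principal transcript. The window at the principal start of Dnmt1 held no match. The Dnmt1 window with matches belongs to another start, 356 bases downstream, and held 2, of which the printed one lies 137 bases after the principal start, in the first exon. Which start was used in these cells is not known. Of the 8 genes, 3 held a match in at least 1 window, as did 6 of 13 genes of a list of S phase genes with a window and 2.6% of all 27025 genes. No window of Dnmt3a, Dnmt3b, Tet1, Tet2 or Tet3 held one. The only windows of Tet1 and Tet3 belong to starts 11794 and 14714 bases from the nearest principal start. The sequence at the principal starts of Tet1 and Tet3 was therefore not searched for either motif given here. None of the 13 windows of the 8 genes held an AP1 motif (TGACTCA or TGAGTCA), the letters bound by the JNK substrate JUN with its partners, which were in 5.2% of all windows. A match is only a run of letters, and no binding was measured. Each E2F string contains CG. The median count of CG in a window was 30 for the 8 genes, 22.5 for the S phase list and 7 for all windows. The part of CG content in the shares of genes with an E2F match was not tested.

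Of the 8 genes, 7 reached the minimum mean of 1 FPKM over the 6 libraries and were tested with limma across 12461 genes. Tet1 did not reach it. No member was called, which required an adjusted p under 0.05 and a log2 fold change beyond 0.75 in either direction, while 9.9% of all tested genes were called. At an unadjusted limma p under 0.05 there was 1 member of 7, Dnmt3a, against 28.2% of all tested genes. The median log2 fold change of the 7 genes was 0.28, and that of all tested genes was 0.01. The count of called members was also 0 under all 14 alternative settings. These counts do not show that the genes were alike in both groups, since all 7 intervals held changes as large as the threshold.

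**Figure D1:**
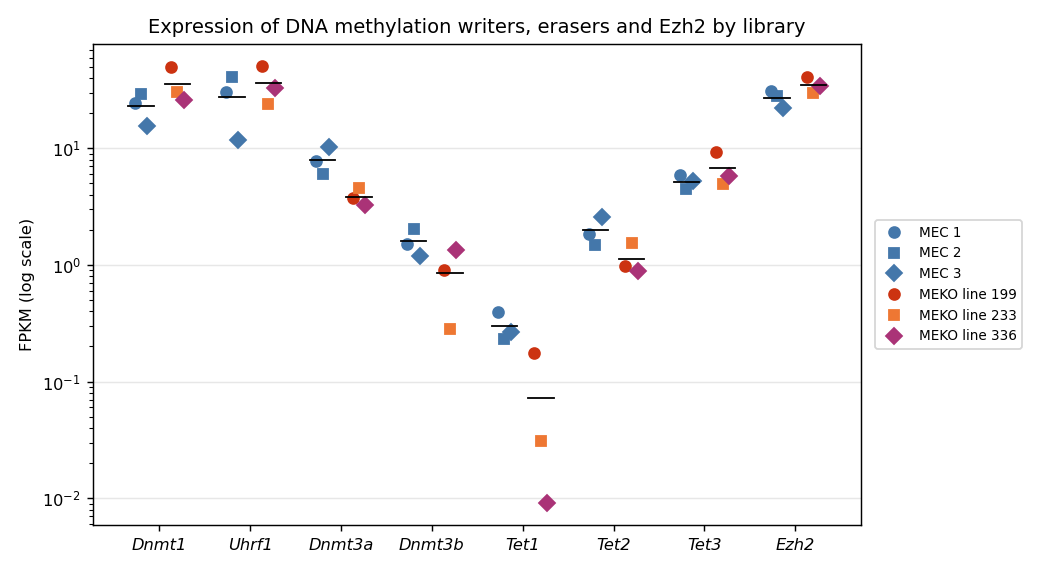
FPKM of each gene (log axis) in the 3 MEC preparations (blue) and the MEKO lines 199 (red), 233 (orange) and 336 (purple), with a black bar at each group's mean. Dnmt3a and Tet1 are lower in every MEKO line than in every MEC library, and the other 6 genes overlap.

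Dnmt1, the maintenance methyltransferase (chr9:20907209-20959888, minus strand, GRCm38), was at 24.7, 29.3 and 15.7 FPKM in MEC 1, 2 and 3 and at 49.6, 30.2 and 26.1 FPKM in lines 199, 233 and 336. Line 199 was the highest and MEC 3 the lowest, and line 336 fell within the MEC range. The means were 23.2 ± 6.92 and 35.3 ± 12.6 FPKM (SD, n = 3 each), with a log2 fold change of 0.57 (95% interval -0.20 to 1.34, limma adjusted p = 0.291). Without line 199 the log2 fold change was 0.31, and without MEC 3 it was 0.33. The exact permutation test (two-sided) gave p = 0.2, where 0.1 is the smallest that 3 against 3 allows.

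Uhrf1 (chr17:56303321-56323486, plus strand) encodes the protein that binds hemimethylated DNA and brings DNMT1 to it. It was at 30.5, 41.1 and 11.7 FPKM in MEC and at 51.0, 24.1 and 33.0 FPKM in lines 199, 233 and 336. MEC 3 was again the lowest library and line 199 the highest, and lines 233 and 336 lay within the wide MEC range. The log2 fold change was 0.47 (95% interval -0.72 to 1.65, limma adjusted p = 0.566), the widest interval of the 7 tested genes. Without MEC 3 it was -0.04, so its direction rested on that library, and without line 199 it was 0.19 and without MEC 2 0.82.

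Dnmt3a, a methyltransferase that sets new marks (chr12:3806007-3914443, plus strand), was at 7.84, 6.01 and 10.2 FPKM in MEC and at 3.75, 4.56 and 3.25 FPKM in lines 199, 233 and 336. Every MEKO line lay below every MEC library. The MEKO mean of 3.85 ± 0.664 FPKM was 0.481 times the MEC mean of 8.0 ± 2.07 FPKM (SD, n = 3 each). The log2 fold change was -0.87 (95% interval -1.43 to -0.32), and the limma adjusted p of 0.0627 did not pass the threshold. Under the other settings the log2 fold change of Dnmt3a ran from -1.04 to -0.71 and its adjusted p from 0.0591 to 0.211. It was the only tested member whose groups did not overlap, 1 of 7 in the lower direction, beside 18.7% of all tested genes. In the higher direction there was 0 of 7, beside 18.5%. An antisense gene, Dnmt3aos, shares 133 bases, or 0.799%, of the exons of Dnmt3a in GENCODE M21.

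Dnmt3b, the other methyltransferase for new marks (chr2:153649450-153687730, plus strand), was low in both groups. Its values were 1.52, 2.05 and 1.19 FPKM in MEC and 0.913, 0.281 and 1.35 FPKM in lines 199, 233 and 336. Line 233 stood at 17.7% of the MEC mean, line 199 at 57.5%, and line 336 lay within the MEC range. The log2 fold change was -0.52 (95% interval -1.27 to 0.23, limma adjusted p = 0.322), and it was -0.28 without line 233 and 0.02 with quantile normalization.

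**Figure D2:**
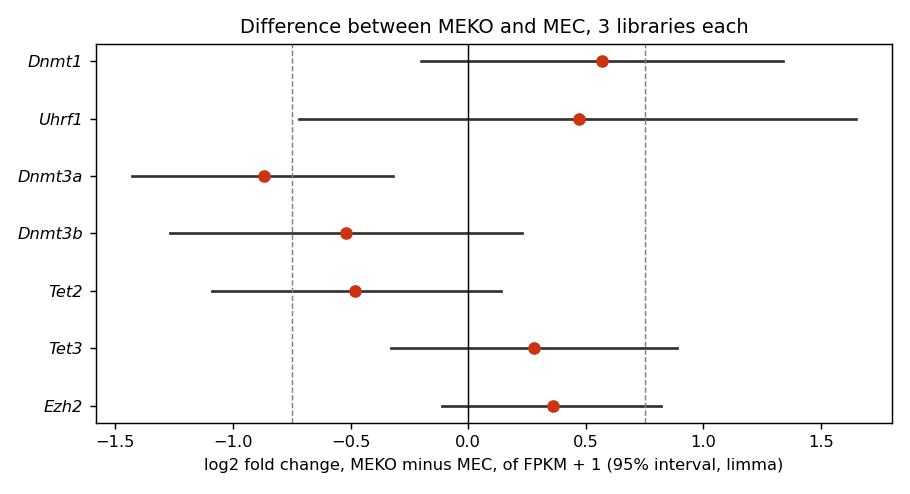
Log2 fold change (MEKO minus MEC, of FPKM + 1) of the 7 tested genes, with the 95% interval of limma as a line and the thresholds of 0.75 dashed. The point of Dnmt3a at -0.87 is the only one beyond a threshold, and its interval of -1.43 to -0.32 is the only one that leaves out 0.

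Tet1 (chr10:62804570-62908996, minus strand) encodes the TET enzyme best known from embryonic stem cells and germ cells. It was listed at 0.398, 0.233 and 0.265 FPKM in MEC and at 0.177, 0.0309 and 0.00909 FPKM in lines 199, 233 and 336. All MEKO lines were below all MEC libraries, as were 13.9% of the 9352 genes with a mean above 0 that missed the minimum. Line 199 stood at 59.1% of the MEC mean, and lines 233 and 336 at 10.3% and 3.04%. The exact permutation test gave p = 0.1, the smallest possible, and the fit without an expression filter gave a log2 fold change of -0.28 (limma adjusted p = 0.257) on a scale that compresses such small values. An FPKM of this size rests on few fragments.

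Tet2, an enzyme often mutated in blood cancers (chr3:133463679-133545139, minus strand), was at 1.84, 1.49 and 2.60 FPKM in MEC and at 0.974, 1.53 and 0.886 FPKM in lines 199, 233 and 336. Line 233 lay just above MEC 2, and the other lines lay below the MEC range. The log2 fold change was -0.48 (95% interval -1.09 to 0.14, limma adjusted p = 0.273), and -0.03 with quantile normalization.

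Tet3, the TET enzyme of the egg that acts on the paternal genome after fertilisation (chr6:83362373-83459084, minus strand), was the most expressed TET gene in every library. It was at 5.87, 4.47 and 5.24 FPKM in MEC and at 9.38, 4.97 and 5.81 FPKM in lines 199, 233 and 336. Line 199 was above all other libraries, and lines 233 and 336 lay within the MEC range. The log2 fold change was 0.28 (95% interval -0.33 to 0.89, limma adjusted p = 0.497), and 0.05 without line 199.

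Ezh2 (chr6:47530139-47595341, minus strand) was at 31.1, 28.1 and 22.2 FPKM in MEC and at 40.9, 29.8 and 34.4 FPKM in lines 199, 233 and 336. Lines 199 and 336 were above the MEC range, and line 233 lay within it. The log2 fold change was 0.36 (95% interval -0.11 to 0.82, limma adjusted p = 0.274), the narrowest interval among the 7 genes. Without MEC 3 it was 0.23, and without line 199 it was 0.24.

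Each line was also set beside the range of the 3 MEC libraries, outside which 79.3% of all tested genes lay in line 199, 75.2% in line 233 and 76.6% in line 336. In line 199 all 8 genes lay outside the MEC range, with Dnmt1, Uhrf1, Tet3 and Ezh2 above it and Dnmt3a, Dnmt3b, Tet1 and Tet2 below it. Dnmt1 in this line was at 214% of the MEC mean, Uhrf1 at 184%, Tet3 at 181% and Ezh2 at 151%. In line 233 there were 4 genes outside, Dnmt1 above and Dnmt3a, Dnmt3b and Tet1 below. Line 336 also had 4, Ezh2 above and Dnmt3a, Tet1 and Tet2 below. Dnmt3a and Tet1 were thus the genes below the MEC range in every line, and no gene was above it in every line. With 1 library per line these positions have no error of their own, and with so large a share of all genes outside the range, their counts are no result about these genes.

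In MEC the order of mean FPKM was Uhrf1 (27.8), Ezh2 (27.1), Dnmt1 (23.2), Dnmt3a (8.0), Tet3 (5.19), Tet2 (1.98), Dnmt3b (1.59) and Tet1 (0.299). The first 3 were not separated, since their ranges overlapped, nor were Tet2 and Dnmt3b. In MEKO the order was Uhrf1 (36.0), Dnmt1 (35.3), Ezh2 (35.1), Tet3 (6.72), Dnmt3a (3.85), Tet2 (1.13), Dnmt3b (0.848) and Tet1 (0.0722), with the same neighbours not separated. Dnmt3a and Tet3 changed places. Dnmt3a was above Tet3 in all 3 MEC libraries and below it in all 3 MEKO lines.

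The shares of the methyltransferase transcripts did not overlap between the groups for any of the 3 catalytic genes. These shares are tied to each other, so they are not separate results. On FPKM alone, 18.7% of all tested genes were lower and 18.5% higher in MEKO without overlap. Dnmt1 made up 72.5%, 78.4% and 58.1% of the summed FPKM of Dnmt1, Dnmt3a and Dnmt3b in MEC and 91.4%, 86.2% and 85.0% in lines 199, 233 and 336. The share of Dnmt3a was 23.0%, 16.1% and 37.5% in MEC and 6.9%, 13.0% and 10.6% in the lines. That of Dnmt3b was 4.42% to 5.49% in MEC and 0.802% to 4.4% in MEKO, where line 336 all but reached MEC 3. The summed level itself overlapped, at 27.1 to 37.4 FPKM in MEC and 30.7 to 54.3 FPKM in MEKO. MEC 3 had the smallest share of Dnmt1, and line 336, the lowest of the lines, was still above MEC 2.

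Among the TET genes, Tet3 made up 72.4%, 72.2% and 64.7% of the summed FPKM in MEC and 89.1%, 76.0% and 86.7% in lines 199, 233 and 336. The share of Tet1 was 3.27% to 4.91% in MEC and 0.135% to 1.68% in MEKO. Neither share overlapped, while that of Tet2 did, at 22.7% to 32.1% against 9.25% to 23.5%. The sum of the 3 TET genes overlapped, at 6.19 to 8.12 and 6.53 to 10.5 FPKM. Shares within a family are tied to each other, and no test was made on them. How often such shares do not overlap for other genes was not counted.

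**Figure D3:**
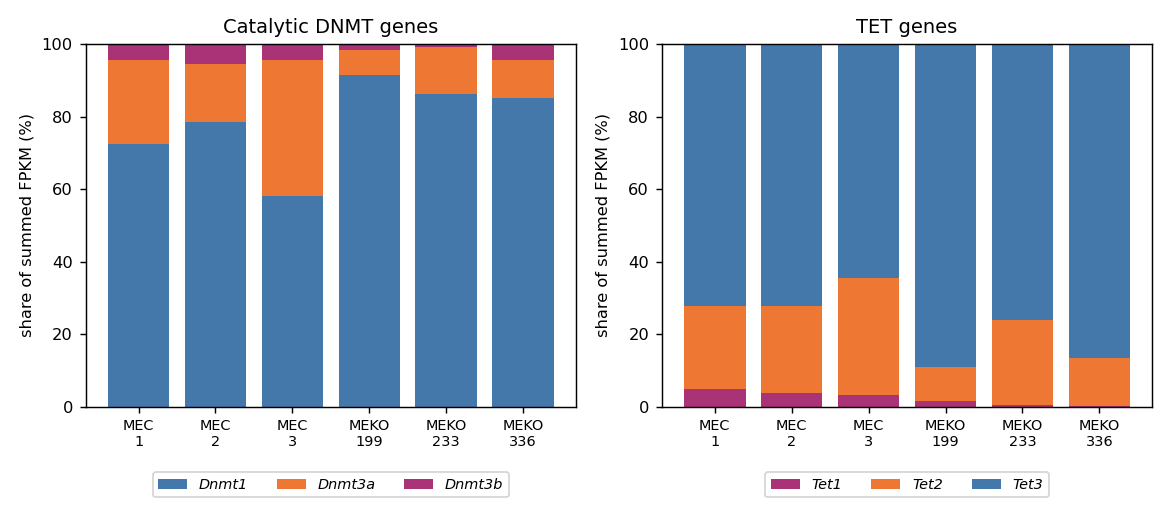
Share (%) of each gene in the summed FPKM of the catalytic DNMT genes (left) and of the TET genes (right), 1 bar per library. Dnmt1 is at 85.0% to 91.4% in the MEKO lines and 58.1% to 78.4% in MEC, and Tet3 at 76.0% to 89.1% and 64.7% to 72.4%.

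Genes of DNA synthesis were listed to set the maintenance genes beside replication. The S phase list holds 15 measured genes, among them Mcm2 to Mcm7, the replicative helicase, and Rrm1 and Rrm2, which make deoxynucleotides. Its mean log2 FPKM was 4.47, 4.73 and 3.23 in MEC 1, 2 and 3 and 5.21, 4.68 and 4.61 in lines 199, 233 and 336. MEC 3 was thus the lowest and line 199 the highest, the same libraries as for Dnmt1, Uhrf1 and Ezh2. The share of all tested genes with these extremes was not counted. None of the 15 genes was called, beside 9.9% of all tested genes. All 15 had a log2 fold change above 0, with a median of 0.60, as had 6381 of the 12461 tested genes, with a median of 0.01 over all. At an unadjusted limma p under 0.05 there was 1 of the 15, beside 28.2% of all tested genes. The mean log2 difference of the list was 0.70 on this scale, and 0.24 without MEC 3. On log2(FPKM + 1) it was 0.64, and 0.23 without MEC 3.

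Relative to the S phase list, Dnmt1 varied less than on its own. The log2 FPKM of Dnmt1 spanned 1.66 over the 6 libraries, and its log2 ratio to the list spanned 0.66. For Uhrf1 the spans were 2.13 and 0.73. The span was smaller against the list for 12.5% of 12040 tested genes above 0 in every library. For the other 6 members it was larger, as for Ezh2, with spans of 0.88 alone and 1.16 against the list. The mean log2 ratio of Dnmt1 to the list was 0.35 ± 0.34 in MEC and 0.25 ± 0.17 in MEKO (SD, n = 3 each), and that of Uhrf1 0.47 ± 0.16 and 0.27 ± 0.31, with overlap in both.

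Among the 7 tested members, the ratio to the S phase genes was lower without overlap in MEKO for Dnmt3a and Dnmt3b, and for 27.4% of all tested genes. It was also lower without overlap for Tet1, which was not tested. With so large a share of all genes lower, this is no result about these genes. The list itself had a mean log2 FPKM of 4.14 in MEC and 4.84 in MEKO, with overlap, and a higher list lowers every such ratio. For Dnmt3b the log2 ratio to the S phase genes was -3.86, -3.69 and -2.97 in MEC and -5.34, -6.51 and -4.18 in lines 199, 233 and 336. For Dnmt3a, added after its values were seen, it was -1.50, -2.14 and 0.12 in MEC and -3.31, -2.49 and -2.92 in the lines. Dnmt3a was highest in MEC 3, at 10.2 FPKM, the library with the lowest S phase genes. Without MEC 3 the log2 fold change of Dnmt3a was -0.71, with a limma adjusted p of 0.180. The part of replication in the levels of any of these genes was not tested.

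**Figure D4:**
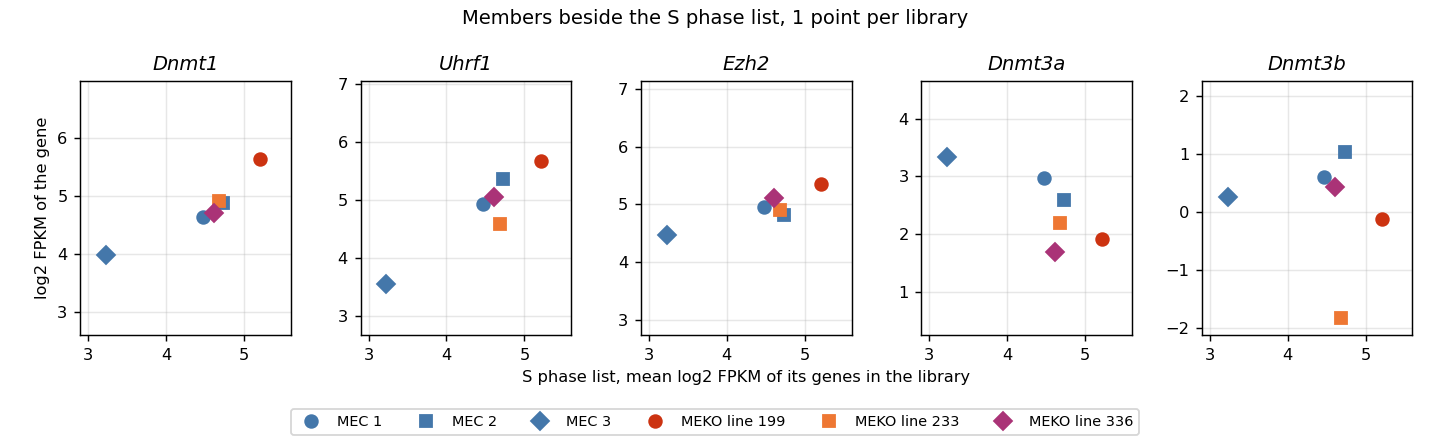
Log2 FPKM of Dnmt1, Uhrf1, Ezh2, Dnmt3a and Dnmt3b (vertical axes) against the mean log2 FPKM of the S phase list (horizontal axis), 1 point per library. Dnmt1, Uhrf1 and Ezh2 are lowest in MEC 3, where the list is at 3.23, and highest in line 199, where it is at 5.21. Dnmt3a is highest in MEC 3.

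Of 12 tested genes whose proteins act with the methyltransferases or guide them, 1 was called higher and 0 lower, where 2.64% of all tested genes were called higher and 7.26% lower. The called gene was Zfp57, a zinc finger protein that protects methylation at imprinted genes, at 1.58, 1.00 and 0.607 FPKM in MEC and 4.34, 3.24 and 3.13 FPKM in lines 199, 233 and 336 (log2 fold change 1.17, limma adjusted p = 0.0400). The call was lost under 10 of 12 alternatives. Pcna, the replication clamp, had a log2 fold change of 0.37 (95% interval -0.37 to 1.11), and Uhrf2, the relative of Uhrf1, one of 0.15 (95% interval -0.40 to 0.70).

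Hells, the remodelling ATPase that opens chromatin to DNA methylation, was at 18.0, 18.4 and 9.49 FPKM in MEC and 39.1, 19.6 and 19.7 FPKM in the lines. All lines were above all MEC libraries, by little for lines 233 and 336, and the limma adjusted p was 0.251. Dnmt3l, the inactive cofactor of DNMT3A and DNMT3B that is usual in germ cells, was listed at 3.24 FPKM in line 199. In the other 5 libraries it was at 0 to 0.662 FPKM.

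Of 10 tested readers of methylated CpG, 1 was called lower, beside 7.26% of all tested genes. This was Zbtb4, a zinc finger repressor that binds methylated CpG, at 7.65, 7.37 and 10.2 FPKM in MEC and 2.70, 3.46 and 3.10 FPKM in the lines (log2 fold change -1.19, limma adjusted p = 0.0164), and the call was lost under 4 of 13 alternatives. Mbd2 had an adjusted p of 0.0303 in the limma fit with a log2 fold change of -0.63, short of the fold threshold. Mbd3, a subunit of the NuRD complex that binds methylated DNA weakly, had a log2 fold change of 0.49 (95% interval 0.11 to 0.86, limma adjusted p = 0.102).

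On the side of removal, 1 of 16 tested TET partners and repair genes was called lower, beside 7.26% of all tested genes. Idh1, which makes the 2-oxoglutarate that TET enzymes consume, was at 54.0, 42.2 and 56.9 FPKM in MEC and 19.9, 21.0 and 33.7 FPKM in the lines (log2 fold change -1.04, limma adjusted p = 0.0465), a call lost under 8 of 13 alternatives. Tdg, the glycosylase that cuts out oxidised methylcytosine, was at 24.5 to 36.3 FPKM in MEC and 38.3 to 43.4 FPKM in MEKO, without overlap, and its log2 fold change of 0.38 did not pass (limma adjusted p = 0.246).

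Around Ezh2, 0 of 13 tested PRC2 subunits and H3K27 demethylases were called, beside 9.9% of all tested genes. At an unadjusted limma p under 0.05 there was 1, beside 28.2%. The median log2 fold change of the list was -0.05. The core subunits Eed and Suz12 were at 21.1 to 25.6 and 23.9 to 28.3 FPKM in MEC and at 26.7 to 30.3 and 30.3 to 44.1 FPKM in MEKO, without overlap, and neither passed (limma adjusted p = 0.298 and 0.246). Jarid2, which helps PRC2 to its targets, was lower without overlap at 3.52 to 6.70 against 2.36 to 3.48 FPKM (limma adjusted p = 0.188). Kdm6b, a demethylase that removes the mark, was likewise lower, at 9.10 to 9.72 against 5.35 to 8.04 FPKM (limma adjusted p = 0.187), and Kdm6a overlapped. Ezh1, the paralog of Ezh2 in resting cells, was at 6.30 to 10.7 FPKM in MEC and 5.99 to 7.08 FPKM in MEKO. Ezh2 stood at 4.09, 4.46 and 2.07 times the FPKM of Ezh1 in MEC and at 6.23, 4.21 and 5.75 times in lines 199, 233 and 336.

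**Figure D5:**
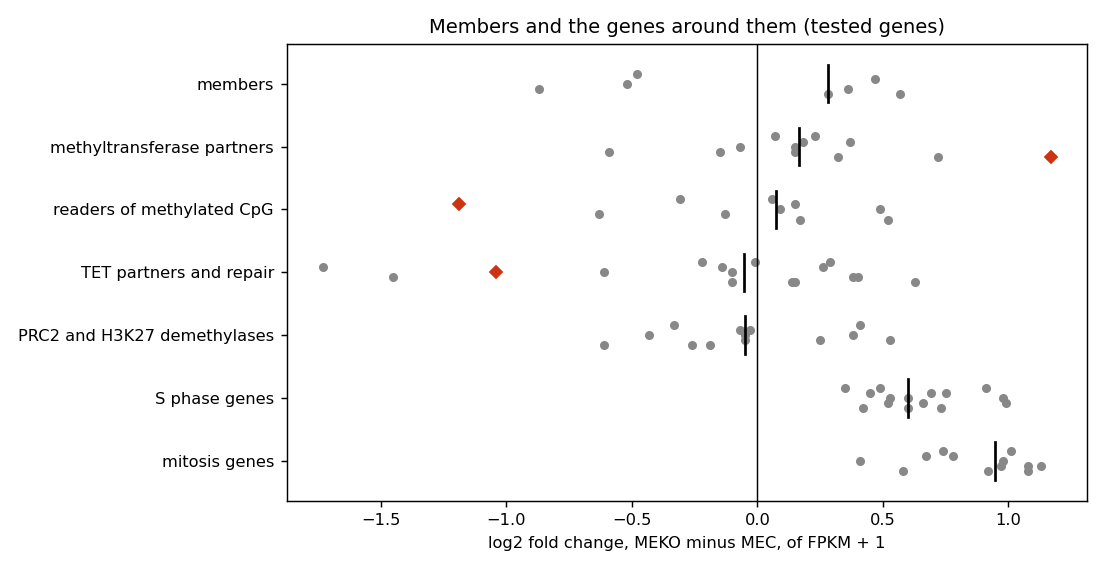
Log2 fold change (MEKO minus MEC, of FPKM + 1) of each tested gene of the 8 members and of 6 lists around them, with called genes as red diamonds and a black bar at each median. The called genes are Zfp57 to the right and Zbtb4 and Idh1 to the left, and all genes of the S phase and mitosis lists lie above 0.

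Mitosis genes, the other list of dividing cells, had a median log2 fold change of 0.94 over 12 tested genes. None was called, 6 were at an unadjusted limma p under 0.05, beside 28.2% of all tested genes, and 8 were higher without overlap, beside 18.5%. The mean difference of the list on log2(FPKM + 1) was 0.86, and 0.47 without MEC 3. Mki67, the proliferation marker, was at 17.4, 18.1 and 6.20 FPKM in MEC and 31.8, 26.8 and 25.0 FPKM in the lines (limma adjusted p = 0.139).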

How the data were processed

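RNA-seq libraries of 3 MEC preparations and 3 MEKO lines were grouped by their titles. Each is a separate preparation or line, so no value is a technical repeat. The authors trimmed the reads, aligned them to mm10 (GRCm38) with Bowtie2 and TopHat2 2.0.14 and quantified genes with Cufflinks 2.2.1, as the paper and the submitters' processing notes state. The deposited table holds their FPKM values, which the authors scaled to the length of the transcript and the size of the library, with 37755 entries, of which 2 hold no value. Read numbers are not given, so the depth is unknown and no counting interval was computed. The relative depth read from small values was 0.92 to 1.30 times that of MEC 1, and genes of low FPKM are the least precise.

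MEKO was compared with MEC in R 4.3.3 with limma 3.58.1 on log2(FPKM + 1), with a mean-variance trend, for genes with a mean of at least 1 FPKM. P-values were adjusted by the Benjamini-Hochberg method over the 12461 tested genes. Fold changes on this scale understate those of low genes. Single genes were also tested by exact permutation (two-sided) of the same values. The fit was tested on simulated data. Positions are from GENCODE M21 on GRCm38.

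The members and all gene lists were chosen with earlier results of these data known, and no list was tested as a set. Named were the 8 members, called genes of each list, a set of partners chosen with the lists, and the 3 tested genes with the profile nearest to each member. Krt5, Mbd2 and genes given as examples were named after their values were seen. Of the listed genes, Epop, Ezhip and Gins2 were not matched in the table, and some listed genes are not reported here. Alternatives were a pseudocount of 0.1, no expression filter, a minimum mean of 5 FPKM, quantile and upper-quartile scaling, no trend, sample weights, no fold threshold and each library left out in turn.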

Additional observations from a re-analysis of the deposited data

How the results depend on the processing

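The count of called members was 0 under each of the 14 alternatives. The count of called genes among all tested was 1234 in the main limma fit made here, which is not the paper's own count. It was 294 with no expression filter, 738 with a minimum mean of 5 FPKM and 1978 with sample weights. As each library was left out it ran from 259 (without MEC 1) to 1966 (without line 199), with 301 without MEC 2 and 477 without MEC 3. These counts differ in the genes or samples entered, except for the sample weights, where the cause was not tested. Quantile normalization moved the share of higher calls from 26.7% to 37.9% and the median of all genes to 0.10, and with it the log2 fold change of Dnmt3b was 0.02 in place of -0.52. That of Uhrf1 was -0.01 with sample weights and ran from -0.04 (without MEC 3) to 0.82 (without MEC 2). The other 5 tested members kept their direction under every alternative run, but not their size. Over the alternatives the log2 fold change ran from 0.31 to 0.76 for Dnmt1, -1.04 to -0.71 for Dnmt3a, -0.76 to -0.03 for Tet2, 0.05 to 0.45 for Tet3 and 0.12 to 0.47 for Ezh2, with the lowest of Tet3 and Ezh2 under sample weights and that of Tet3 also without line 199. The mean of 1 FPKM decided that Tet1 was not tested. No paired analysis was possible because the groups share no replicate number.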

Other observations

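A list of 18 germline genes that are known to be kept silent by promoter methylation, such as Dazl, Ddx4, Sycp3 and Mael, was near 0 in all libraries. None reached the minimum mean of 1 FPKM, the highest value of any of them in any library was 0.455 FPKM, and 4 were at 0 in all 6 libraries. The highest was Piwil2, a protein of the germline small RNA pathway, named after its values were seen. It was at 0.455, 0.291 and 0.438 FPKM in MEC and at 0.0562, 0 and 0.0298 FPKM in lines 199, 233 and 336, without overlap.

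The genes whose profile over the 6 libraries was nearest to each tested member were found by the root mean square difference of log2(FPKM + 1), each centred on its own mean. For Dnmt1 they were Dus4l (0.062), Ncapd3 (0.071) and Enoph1 (0.071). For Uhrf1 they were Gm17092 (0.132), 2810408I11Rik (0.151) and Orc1 (0.151), the last a subunit of the complex that marks replication origins. Dnmt1 ranked 140 in likeness to Uhrf1 among the other tested genes. Seen from Dnmt1, Uhrf1 ranked 1239, behind Ezh2 at 664. For Dnmt3a they were Spryd7 (0.042), Ulk2 (0.087) and Ncoa1 (0.093), and Tet2 ranked 105. Seen from Tet2, Dnmt3a ranked 444. Spryd7 was at 22.0, 18.5 and 29.8 FPKM in MEC and 11.9, 15 and 10.8 FPKM in the lines.

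For Dnmt3b the nearest were Lrp5 (0.115), Phc2 (0.118), a Polycomb protein, and Clic1 (0.126), none as close as those of Dnmt3a. For Tet2 they were Tox4 (0.052), Vamp1 (0.058) and Zmym5 (0.063), for Tet3 Gm14680 (0.056), Nhlrc2 (0.064) and Zc3hav1l (0.086), and for Ezh2 Snrpg (0.045), Tcp1 (0.049) and Gm4353 (0.058). Over 6 libraries many genes share a profile, and these values are a description only.

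The balance of enzymes with related roles overlapped between the groups. Dnmt3b stood at 0.194, 0.341 and 0.118 times the FPKM of Dnmt3a in MEC and at 0.244, 0.0617 and 0.416 times in lines 199, 233 and 336. Uhrf1 stood at 1.24, 1.40 and 0.744 times that of Dnmt1 in MEC and at 1.03, 0.797 and 1.27 times in the lines. The summed TET genes were at 0.238, 0.166 and 0.300 times the summed DNMT genes in MEC and at 0.194, 0.186 and 0.219 times in the lines.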
